A study of Homo sapiens with 8 samples.

Results

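The genes described here encode the proteins of the cytosolic ribosome. Members were taken by symbol from the deposited count table: every RPL or RPS symbol with a number and an optional A, X or L ending, plus RPSA, RPLP0, RPLP1 and RPLP2, without pseudogenes and without the Y-linked copies. The rule found 84 of the 16829 genes in the table, which are 31 small subunit genes, 43 large subunit genes, 3 genes of the acidic stalk and 7 paralogs of large or small subunit genes. The rule used symbols and no measured value.

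Polyadenylated RNA was sequenced from RKO and SW480, a pair of human lines derived from colorectal cancers, both grown in DMEM with 10% serum and both given lentivirus. RKO cells carrying CYP1B1 (2 libraries) were set against RKO cells labelled as normal control for CYP1B1 (2 libraries). SW480 cells carrying a hairpin against CYP1B1, shCYP1B1 (2 libraries), were set against SW480 cells carrying a non-targeting hairpin, shNT (2 libraries). CYP1B1 is a cytochrome P450 that oxidises steroids, fatty acids and foreign chemicals. Each SW480 arm carries a single hairpin name, so other effects of the hairpin cannot be told apart from those of the knockdown. Whether the replicates of a group came from separate cultures is not stated, and the p-values below therefore speak only of the variation among these libraries, which may be technical.

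A ribosome holds 1 copy of nearly every ribosomal protein, and the cell makes the proteins in near-equal amounts from mRNAs that are among its most abundant. These mRNAs usually begin with a C and a run of pyrimidines, the terminal oligopyrimidine (TOP) start, through which LARP1 and the mTOR pathway set their translation and stability. Unassembled proteins are degraded, and RPL5 and RPL11 that are left free can bind MDM2, the ubiquitin ligase of p53.

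Totals ran from 31550173 to 34921085 counts per library. CYP1B1 stood at 443 and 526 CPM (counts scaled to the library total) in the RKO CYP1B1 libraries, against 0.697 and 0.726 CPM in RKO control. It stood at 0.354 and 0.290 CPM in SW480 shCYP1B1, against 1.43 and 2.20 CPM in SW480 shNT, a transcript scarce in both SW480 groups. Both differences passed the test used throughout, edgeR's quasi-likelihood test over 14157 genes with Benjamini-Hochberg adjustment at 0.05 (adjusted p 7.93e-11 and 6.43e-05). Summed over 10 colon epithelial markers, the TMM-scaled level was 283 and 298 CPM in RKO CYP1B1, 264 and 250 CPM in RKO control, 5692 and 5736 CPM in SW480 shCYP1B1 and 5288 and 5075 CPM in SW480 shNT, with 6 of the 10 under 1 CPM in RKO and 3 of the 10 in SW480. Most of the SW480 sum was KRT8 and KRT18, keratins that rose with the hairpin (log2 fold changes 0.26 and 0.27). CDH1 was also higher, at 9.93 and 8.93 CPM in SW480 shCYP1B1, against 5.97 and 6.58 CPM in SW480 shNT. EPCAM (-2.52), KRT19 (-0.92), CDX2 (-0.86) and VIL1 (-3.19) fell. EPCAM, the epithelial adhesion molecule, stood at 22.5 and 23.3 CPM in SW480 shCYP1B1, against 131 and 131 CPM in SW480 shNT. The part of these marker changes in the SW480 results below was not tested. The markers of other cell types summed to 6.25 to 25.2 CPM per library once CD68 was left out. CD68 itself stood at 684 and 662 CPM in RKO CYP1B1 and 773 and 691 CPM in RKO control. In SW480 it stood at 22.5 and 24.4 CPM in shCYP1B1 and 5.36 and 6.87 CPM in shNT. In bulk samples such as these, fewer cells of a kind and less RNA per cell cannot be told apart.

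The transcript starts of the members were read from RefSeq promoter windows on GRCh38.p14, the same assembly series as the GRCh38.p13 build named in the submitters' processing notes. A window was found for 67 of the 84 members. The sequences below run from 40 bases before to 20 bases from the start, 5′ to 3′ on the gene's strand, with the first transcribed base and any unbroken run of pyrimidines from it in capitals. They belong to genes that were high or low in the comparisons that follow, and to paralogs set beside their partners. RPS14 lies at chr5:150449720-150449779 on the minus strand, RPL18 at chr19:48619159-48619218 on the minus strand, RPLP2 at chr11:809927-809986 on the plus strand, RPS9 at chr19:54200818-54200877 on the plus strand and RPL36AL at chr14:49620607-49620666 on the minus strand. RPL22 lies at chr1:6199576-6199635 and RPL22L1 at chr3:170870176-170870235, both on the minus strand. RPL26 lies at chr17:8383174-8383233 on the minus strand and RPL26L1 at chr5:172958689-172958748 on the plus strand.
RPS14: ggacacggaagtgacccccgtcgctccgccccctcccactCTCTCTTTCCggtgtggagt
RPL18: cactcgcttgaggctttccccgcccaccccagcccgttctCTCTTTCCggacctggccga
RPLP2: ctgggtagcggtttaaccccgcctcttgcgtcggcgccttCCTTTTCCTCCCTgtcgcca
RPS9: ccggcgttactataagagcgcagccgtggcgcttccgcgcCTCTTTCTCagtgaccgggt
RPL36AL: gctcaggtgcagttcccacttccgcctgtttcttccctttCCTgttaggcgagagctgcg
RPL22: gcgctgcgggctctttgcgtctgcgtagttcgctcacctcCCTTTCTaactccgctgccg
RPL22L1: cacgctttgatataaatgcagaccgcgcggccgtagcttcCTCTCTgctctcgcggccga
RPL26: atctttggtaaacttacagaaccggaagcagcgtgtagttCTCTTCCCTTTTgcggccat
RPL26L1: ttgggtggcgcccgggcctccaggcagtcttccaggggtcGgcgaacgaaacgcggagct

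A TOP-type start, here a C followed by at least 4 C or T, was present in 47 of the 67 members, or 70.1%, against 6.83% of the 11265 other tested genes with a window and 5.14% of all 27305 genes with one. RPL22L1 had such a start like its partner RPL22, while RPL26L1 began with a G and RPL36AL had a pyrimidine run of only 3 bases. Searched on both strands over the whole window from 250 bases before to 50 after the start, CCGGAAG, the core bound by GABPA and other ETS factors, stood in 35.8% of members, against 20.9% of other tested genes and 12.2% of all genes. ATGGCGG, the core of the YY1 motif, stood in 20.9% of members, 11.6% of other tested genes and 6.66% of all genes. Neither motif contains the other, and a match describes the letters of the window only.

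The family took up a large and line-dependent part of each library. It held 9.58% and 8.33% of all counts in RKO CYP1B1, against 8.41% and 8.21% in RKO control, and 6.37% and 6.41% in SW480 shCYP1B1, against 6.23% and 5.99% in SW480 shNT. The RKO groups overlapped, since the second RKO CYP1B1 library lay between the RKO control libraries, whereas the SW480 groups did not. The ratio of the mean shares was 1.08 in RKO and 1.05 in SW480, and 1.36 for RKO control over SW480 shNT. With 2 libraries a side an exact permutation test cannot go below 0.33, so these shares carry no test.

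**Figure D1:**
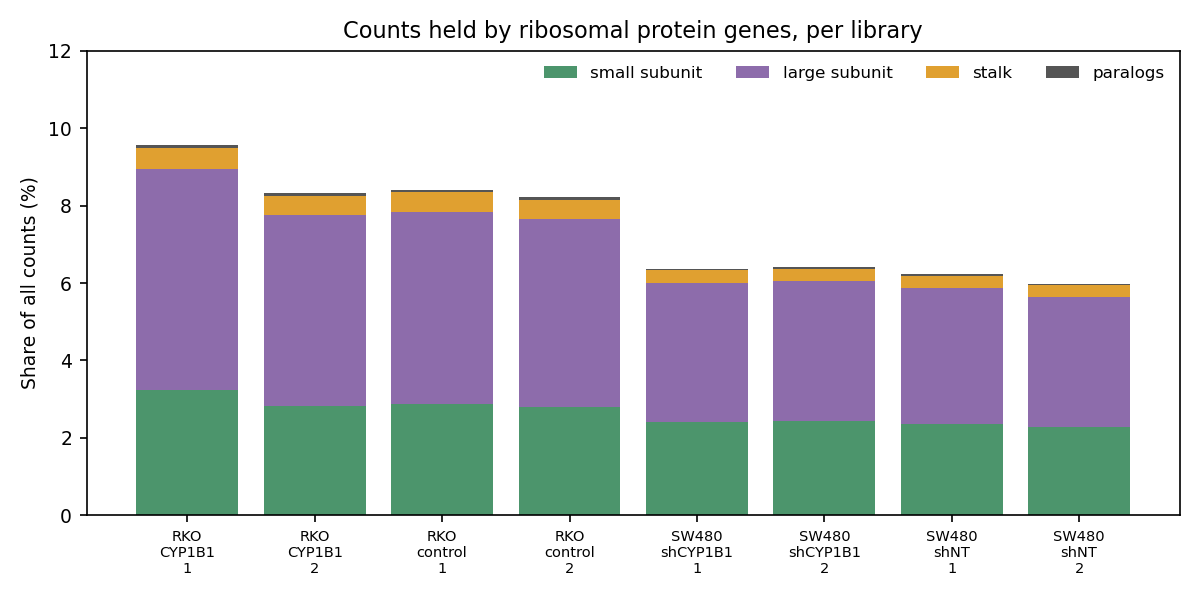
Percent of all counts held by small subunit, large subunit, stalk and paralog genes in each of the 8 libraries. RKO CYP1B1 replicate 1 stands highest at 9.58%, RKO CYP1B1 replicate 2 at 8.33% lies within the RKO control pair, and all SW480 libraries lie between 5.99% and 6.41%.

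The balance between the subunits differed by line. Counts of large subunit and stalk genes were 1.94 times those of small subunit genes in RKO CYP1B1 and 1.92 times in RKO control, against 1.62 times in SW480 shCYP1B1 and 1.61 times in SW480 shNT (means of 2 libraries each). The difference between the lines lay mainly in the large subunit, whose share was 1.43 times as high in RKO control as in SW480 shNT, and in the stalk, at 1.63 times, with the small subunit at 1.22 times.

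Levels per length, in the deposited FPKM (fragments scaled to gene length and library total), spread widely although the proteins are used in near-equal numbers. Over the 8 libraries 26 members had a median above 1000 FPKM, 47 lay from 100 to 1000 FPKM and 11 lay under 100 FPKM, and 47 members were among the 100 highest genes of the whole table. RPL13A led with a median of 3442 FPKM. It stood at 4792 and 4057 FPKM in RKO CYP1B1, 4262 and 4065 FPKM in RKO control, 2807 and 2826 FPKM in SW480 shCYP1B1 and 2308 and 2202 FPKM in SW480 shNT. RPS2, a small subunit protein, followed at a median of 3275 FPKM and RPL12, which sits at the base of the stalk, at 2963 FPKM. The libraries of these 3 genes overlap in their ranges, so their order among themselves is not fixed: RPL12 ranked first in RKO control and RPS2 in SW480 shNT. Leaving out paralogs and members that overlap a read-through gene, the other 74 members spanned 178-fold in median FPKM, down to RPS29 at 19.4 FPKM. The gene length implied by the counts and FPKM bears on that span: it ran from 390 bases for RPL39 to 7573 bases for RPL37, with 11 members over 3000 bases, RPS29 among them at 7472, far longer than a coding sequence of this family.

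The lowest members were mostly special cases. RPL36A, RPL17 and RPS10 each overlap an annotated read-through gene (RPL36A-HNRNPH2, RPL17-C18orf32 and RPS10-NUDT3 in GENCODE 29), and the rule for reads in shared exons is not given in the sources used here. RPL36A had 30 and 1 counts in RKO CYP1B1, 8 and 10 in RKO control, 1 and 17 in SW480 shCYP1B1 and 3 and 19 in SW480 shNT. Replicates of RPL36A thus differed more than groups did. RPL39L had 1 count in 1 library and was not tested, which leaves 83 members tested. For 77 members GENCODE 29 names pseudogenes, 1145 in all, and how reads matching several copies were counted is not given, so levels of members with many copies, such as RPSA with 74, are uncertain.

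With CYP1B1 in RKO the family leaned upward, with small changes in many genes and no member called lower. Of 83 members tested, 22 rose and 0 fell, or 26.5% of members, where 13.8% of all genes rose and 13.8% fell. The median log2 fold change was 0.17 for members and 0.00 for all genes, and 77 of 83 members had a positive value. DESeq2 called 31 members higher and 0 lower, where it called 2025 higher and 2044 lower among all genes. At an unadjusted p under 0.05 edgeR's test had 36 members higher and 0 lower, and the share of all genes at that cut is not given here. The libraries of the groups did not overlap for 50 members, all higher with CYP1B1, or 60.2%, where 28.8% of all genes were so placed upward and 30% downward. By role, 12 of 43 large subunit genes rose (median 0.17), 6 of 31 small subunit genes (median 0.13), 2 of 3 stalk genes and 2 of 6 tested paralogs, with 0 falling in each group.

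The size of that lean came chiefly from 1 library. Against the mean of the RKO control libraries, all 83 members were higher in RKO CYP1B1 replicate 1, with a median of 0.25 on the log2 scale. In RKO CYP1B1 replicate 2, 57 of 83 were higher, with a median of 0.06, while the control libraries differed from each other by a median of 0.05. Without replicate 2, 68 members rose and 0 fell, where 16.2% of all genes rose. Without replicate 1, 21 rose and 7 fell, where 18.6% of all genes rose and 20.1% fell. The 7, named here after their values were seen, were RPL12, RPL23A, RPL26, RPL27, RPL28, RPL37 and RPLP0. The replicate libraries of this group differed by a median of 0.20 on the log2 scale over members and 0.16 over all genes, against 0.06 and 0.09 in RKO control, and a cause was not tested. Of the 22 genes that rose with all libraries, 20 also rose without replicate 1, the exceptions being RPL24 and RPL8, and all 22 rose without replicate 2.

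**Figure D2:**
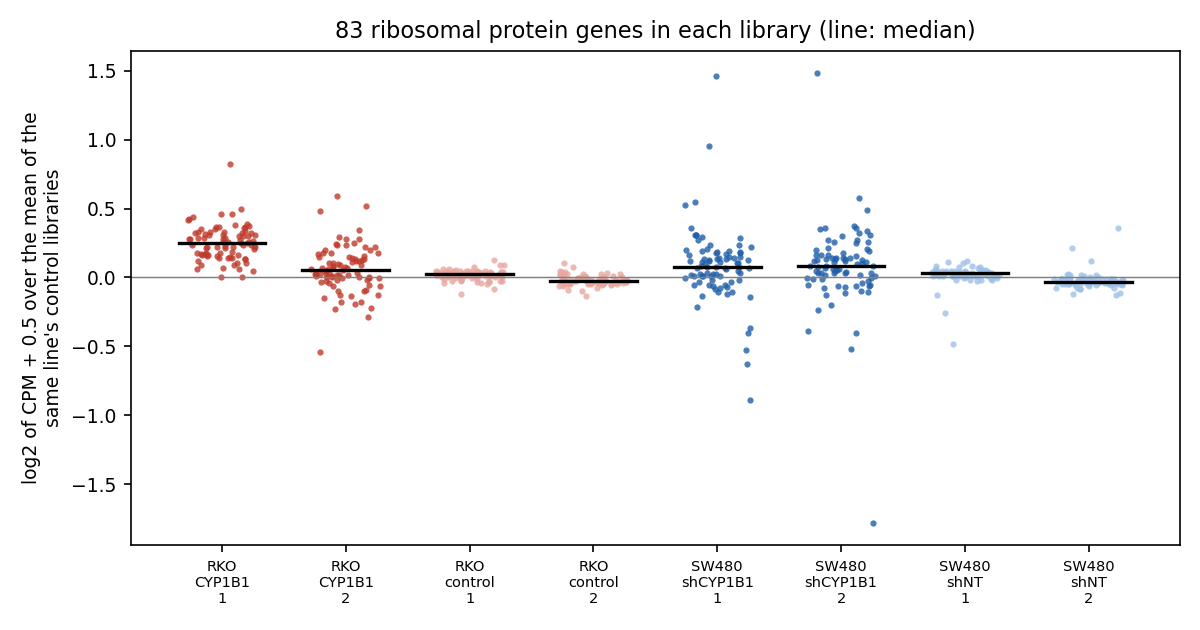
Each point is 1 of 83 tested members, as log2 of CPM plus 0.5 over the mean of the same line's control libraries (RKO control or SW480 shNT), with a line at the median of each library. The median stands at 0.25 in RKO CYP1B1 replicate 1 and 0.06 in replicate 2, and at 0.08 in both SW480 shCYP1B1 libraries.

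Among small subunit genes the largest rise was that of RPS14, whose haploinsufficiency underlies the anemia of a form of myelodysplastic syndrome. It stood at 747 and 699 TMM-scaled CPM in RKO CYP1B1, against 556 and 545 CPM in RKO control. Both libraries with CYP1B1 were above both controls, and the log2 fold change was 0.39 (SE 0.06; edgeR adjusted p 0.0012). RPS19, the gene most often mutated in Diamond-Blackfan anemia, stood at 756 and 668 CPM in RKO CYP1B1, against 562 and 572 CPM in RKO control (log2 fold change 0.33, SE 0.07; edgeR adjusted p 0.0059). RPS15, which the small subunit precursor needs for export from the nucleus, stood at 574 and 532 CPM, against 450 and 428 CPM in RKO control (log2 fold change 0.33, SE 0.07; edgeR adjusted p 0.004). The groups of all 3 genes were apart, with replicate 1 the higher of the libraries with CYP1B1 each time. RPS13 (log2 fold change 0.29) rose as well, as did RPS27A (0.25), whose product is a fusion of ubiquitin and a small subunit protein. RPS6, the classic substrate of the S6 kinases, had a value of 0.07 (edgeR adjusted p 0.488) and RPSA, which is also known as a laminin receptor, 0.17 (adjusted p 0.0696), and neither passed the test.

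Among large subunit genes RPL18 stood at 574 and 524 CPM in RKO CYP1B1, against 436 and 421 CPM in RKO control (log2 fold change 0.36, SE 0.07; edgeR adjusted p 0.00299). RPL41, which encodes a short basic peptide at the subunit interface, stood at 820 and 708 CPM, against 585 and 609 CPM in RKO control (log2 fold change 0.36, SE 0.07; edgeR adjusted p 0.00439). RPL15, another Diamond-Blackfan gene, stood at 1423 and 1340 CPM, against 1092 and 1117 CPM in RKO control (log2 fold change 0.32, SE 0.06; edgeR adjusted p 0.00263). For each of the 3, both libraries with CYP1B1 lay above both control libraries. RPL22 (log2 fold change 0.25), RPL39 (0.24) and RPL7 (0.23), the partners of paralogs treated below, also rose. RPL5 and RPL11, the MDM2-binding pair, had values of 0.05 and 0.10 (adjusted p 0.583 and 0.299), RPL3, which lies near the peptidyl transferase centre, 0.13 (adjusted p 0.162), and RPL10, which acts in subunit joining, 0.15 (adjusted p 0.171).

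The stalk proteins recruit the elongation factors to the ribosome. RPLP2 stood at 711 and 635 CPM in RKO CYP1B1, against 561 and 529 CPM in RKO control (log2 fold change 0.30, SE 0.07; edgeR adjusted p 0.00927). RPLP1 stood at 1342 and 1183 CPM, against 1078 and 1012 CPM in RKO control (log2 fold change 0.27, SE 0.07; edgeR adjusted p 0.0167). Both were apart from their controls, unlike RPLP0, the anchor of the stalk. RPLP0 stood at 3508 and 2944 CPM, against 3328 and 3121 CPM in RKO control, with 1 library above and 1 below both controls (log2 fold change 0.00, SE 0.08; edgeR adjusted p 1).

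The largest rise in RKO was that of a paralog. RPL36AL, an intact copy of RPL36A on chromosome 14, stood at 164 and 175 CPM in RKO CYP1B1, against 117 and 116 CPM in RKO control (log2 fold change 0.54, SE 0.07; edgeR adjusted p 0.000331). RPS27L, a p53-induced paralog of RPS27, stood at 54.9 and 55.7 CPM, against 37.5 and 41.9 CPM in RKO control (log2 fold change 0.48, SE 0.14; edgeR adjusted p 0.0232). In both genes replicate 2 was the higher of the CYP1B1 libraries, and the groups did not overlap. RPL22L1 had a value of 0.15 (adjusted p 0.152), RPL7L1 0.12 (adjusted p 0.197) and RPL26L1 -0.01 (adjusted p 0.988). RPS27, the partner of RPS27L, had 0.12 (adjusted p 0.254). Leaving out RKO control replicate 2 ended the call of 15 of the 22 genes, leaving 7, where 6.13% of all genes then rose, and leaving out RKO control replicate 1 left 12, where 8.02% did. Those that held in every fit with 1 library left out included RPL36AL, RPS14, RPL18, RPL41, RPS19 and RPL15. Of the other genes described above as risen, RPS15, RPS13, RPLP1 and RPLP2 lost their call without the second control, and RPS27A, RPS27L, RPL22, RPL39 and RPL7 lost it without either control. Fitting the RKO libraries alone left 9 members higher and 0 lower, where 9.39% of all genes rose and 9.62% fell in that fit.

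With the CYP1B1 hairpin in SW480, members moved in both directions. In the fit shared by all 4 groups, a smaller share of members was called than of all genes. Of 83 members tested, 16 rose and 5 fell, or 19.3% and 6.02% of members, where 25.3% of all genes rose and 25.3% fell. That smaller share depended on the fit: on the SW480 libraries alone, 44 members rose and 11 fell, where 33.2% of all genes rose and 32.3% fell. The median log2 fold change was 0.08 for members and -0.00 for all genes, and the SW480 shNT libraries differed from each other by a median of 0.06 over members. Whether the family's shift differs in size from that in RKO rests on 1 library, since the RKO median was 0.17 with all libraries and 0.06 without CYP1B1 replicate 1. The groups did not overlap for 52 members upward and 13 downward, or 62.7% and 15.7%, where 40.3% and 40.4% of all genes were so placed. By role, 8 of 43 large subunit genes rose and 1 fell, 6 of 31 small subunit genes rose and 2 fell, 1 of 3 stalk genes rose, and 1 of 6 tested paralogs rose and 2 fell.

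RPL22L1, the paralog of the RNA-binding large subunit protein RPL22, rose farther than any other member with more than a few counts. It stood at 55.6 and 56.3 TMM-scaled CPM in SW480 shCYP1B1, against 20.9 and 18.8 CPM in SW480 shNT. The groups were far apart and each was tight, with a log2 fold change of 1.5 (SE 0.08; edgeR adjusted p 2.51e-07). RPL22 itself stood at 456 and 456 CPM in SW480 shCYP1B1, against 418 and 410 CPM in SW480 shNT (log2 fold change 0.14, SE 0.07; edgeR adjusted p 0.106). The ratio of RPL22L1 to RPL22, as a percent of FPKM, was 13.2% and 13.4% in SW480 shCYP1B1, against 5.43% and 4.96% in SW480 shNT. In RKO the ratio was 47.3% and 51.5% with CYP1B1, against 51.1% and 54.3% in RKO control, with overlapping groups. Relative to its partner, RPL22L1 thus stood higher in all 4 RKO libraries than in any SW480 library.

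Other paralogs fell or did not pass. RPL26L1, the paralog of RPL26, stood at 26.7 and 26.9 CPM in SW480 shCYP1B1, against 38.1 and 39.2 CPM in SW480 shNT (log2 fold change -0.53, SE 0.12; edgeR adjusted p 0.00378). RPL7L1, a nuclear paralog of RPL7 linked to ribosome assembly, stood at 169 and 165 CPM, against 215 and 223 CPM in SW480 shNT (log2 fold change -0.39, SE 0.07; edgeR adjusted p 0.000608). Both fell with the groups apart, and their partners had values of 0.06 for RPL26 (adjusted p 0.59) and -0.01 for RPL7 (adjusted p 0.932). RPL26L1 was 1.28% and 1.20% of RPL26 by FPKM in SW480 shCYP1B1, against 1.86% and 1.86% in SW480 shNT. RPL7L1 was 12.03% and 11.6% of RPL7 in SW480 shCYP1B1, against 15.02% and 15.7% in SW480 shNT, and 6.04% and 7.31% in RKO CYP1B1, against 7.30% and 7.04% in RKO control. RPL36AL had a value of 0.13 (adjusted p 0.136) and RPS27L -0.10 (adjusted p 0.614) in SW480. RPL3L, a striated muscle paralog of RPL3, had 19 and 11 counts in SW480 shCYP1B1, against 2 and 2 counts in SW480 shNT. That is a ratio of 7.63 for the summed counts per total (95% interval 2.69 to 29.8, counting error only), and it missed the threshold (edgeR adjusted p 0.0508).

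**Figure D3:**
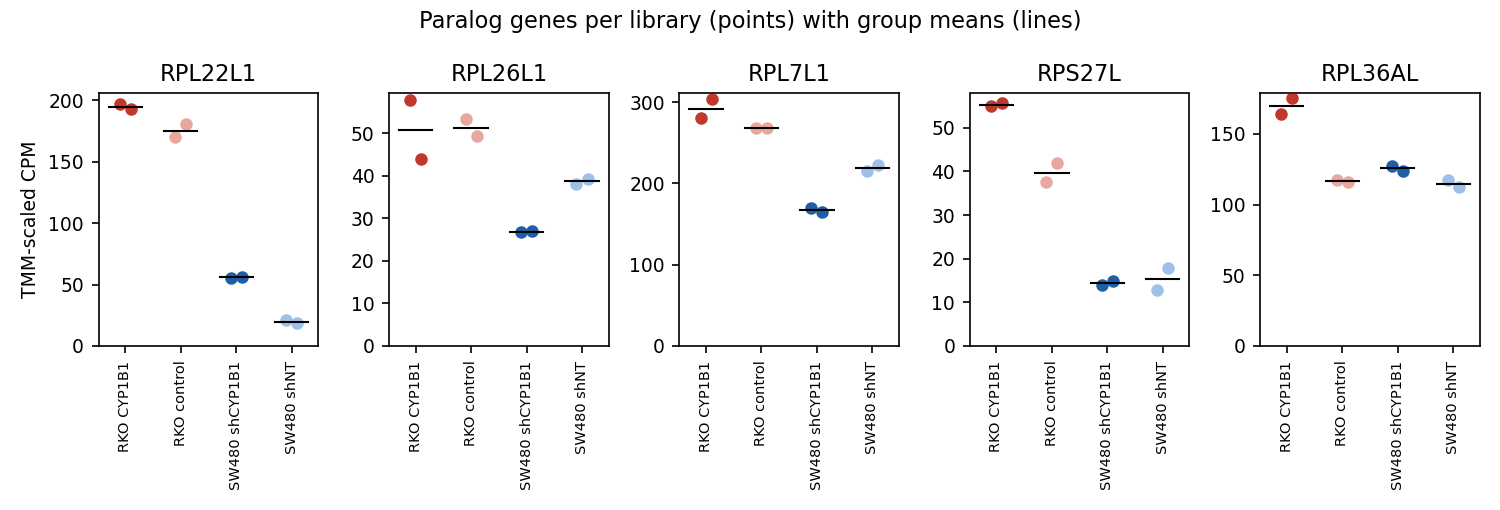
TMM-scaled CPM of 5 paralog genes in each library (points) with the mean of each group (lines), each panel on its own scale from 0. RPL22L1 stands at 55.6 and 56.3 CPM in SW480 shCYP1B1, against 20.9 and 18.8 CPM in SW480 shNT, and RPL36AL at 164 and 175 CPM in RKO CYP1B1, against 117 and 116 CPM in RKO control.

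RPS9, a small subunit protein near the mRNA entry site, had the next largest rise in SW480. It stood at 702 and 684 CPM in SW480 shCYP1B1, against 504 and 471 CPM in SW480 shNT (log2 fold change 0.51, SE 0.08; edgeR adjusted p 0.000233). RPS25, known for its need in translation from viral internal ribosome entry sites, stood at 660 and 692 CPM, against 554 and 523 CPM in SW480 shNT (log2 fold change 0.33, SE 0.09; edgeR adjusted p 0.00753). Both small subunit genes were higher in both hairpin libraries than in either shNT library, and RPS29, a zinc-binding protein, also rose (0.27, adjusted p 0.028). RPS26, which lies at the mRNA exit site and is a Diamond-Blackfan gene, went the other way. It stood at 157 and 158 CPM in SW480 shCYP1B1, against 225 and 189 CPM in SW480 shNT, apart but with a wide gap between the shNT libraries (log2 fold change -0.40, SE 0.09; edgeR adjusted p 0.00452). RPS10, outside the rule for named genes and given here after its values were seen, had 65 and 28 counts, against 129 and 155 counts in SW480 shNT (log2 fold change -1.54; edgeR adjusted p 0.00647). That gene overlaps a read-through gene and stayed under 5 CPM in every library, and its call was lost without SW480 shNT replicate 2 or shCYP1B1 replicate 2.

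RPL13A, the highest member per length, stood at 3245 and 3272 CPM in SW480 shCYP1B1, against 2597 and 2466 CPM in SW480 shNT (log2 fold change 0.36, SE 0.07; edgeR adjusted p 0.00184). RPL28 stood at 1364 and 1400 CPM, against 1180 and 1018 CPM in SW480 shNT (log2 fold change 0.33, SE 0.10; edgeR adjusted p 0.0177). The groups of both large subunit genes did not overlap. RPL12, at the base of the stalk, stood at 1358 and 1408 CPM, against 1145 and 1086 CPM in SW480 shNT (log2 fold change 0.31, SE 0.09; edgeR adjusted p 0.015). RPLP2 of the stalk had a log2 fold change of 0.24 (adjusted p 0.0152), RPL11 of 0.23 (adjusted p 0.0155) and RPL17 of 0.48 (adjusted p 0.0382). RPL17 was counted at only 210 to 325 reads per SW480 library and overlaps a read-through gene. RPL41 stood at 743 and 749 CPM in SW480 shCYP1B1, against 870 and 854 CPM in SW480 shNT, and fell with its groups apart (log2 fold change -0.21, SE 0.07; edgeR adjusted p 0.0333). RPLP0 (0.08, adjusted p 0.421), RPLP1 (0.10, adjusted p 0.29), RPSA (0.16, adjusted p 0.0517), RPS6 (-0.11, adjusted p 0.203) and RPL5 (0.03, adjusted p 0.68) did not pass.

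Fewer members kept their call as risen when SW480 shNT replicate 2, shCYP1B1 replicate 2 or shCYP1B1 replicate 1 was left out. The share of all genes called as risen was also smaller in those fits. The member medians were then 0.07, 0.09 and 0.09. RPL22L1, RPS9 and RPL13A were among those that held in every fit with 1 library left out, as were RPL26L1 and RPL7L1 among those that fell. RPL12, RPL28, RPS25, RPL11 and RPLP2 lost their call without either replicate 2, and RPL28 and RPLP2 also without shCYP1B1 replicate 1. RPL17, RPS29 and RPL41 lost theirs without any 1 of the SW480 libraries, and RPS26 without shNT replicate 1. The call of RPS29 was lost under 10 alternatives, among them scaling by library size only and the fits without either RKO control. The summed level of 12 markers of other cell types, CD68 included, stood at 47.6 and 49.7 CPM in SW480 shCYP1B1, against 20.6 and 26.1 CPM in SW480 shNT. Of the 12, 8 and 7 were under 1 CPM, and the part of this sum in these results was not tested. The fit shared 1 estimate of the spread over all 4 groups. Fitted on the SW480 libraries alone, which were closer to each other than the RKO CYP1B1 pair, 44 members rose and 11 fell, where 33.2% of all genes rose and 32.3% fell in that fit.

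**Figure D4:**
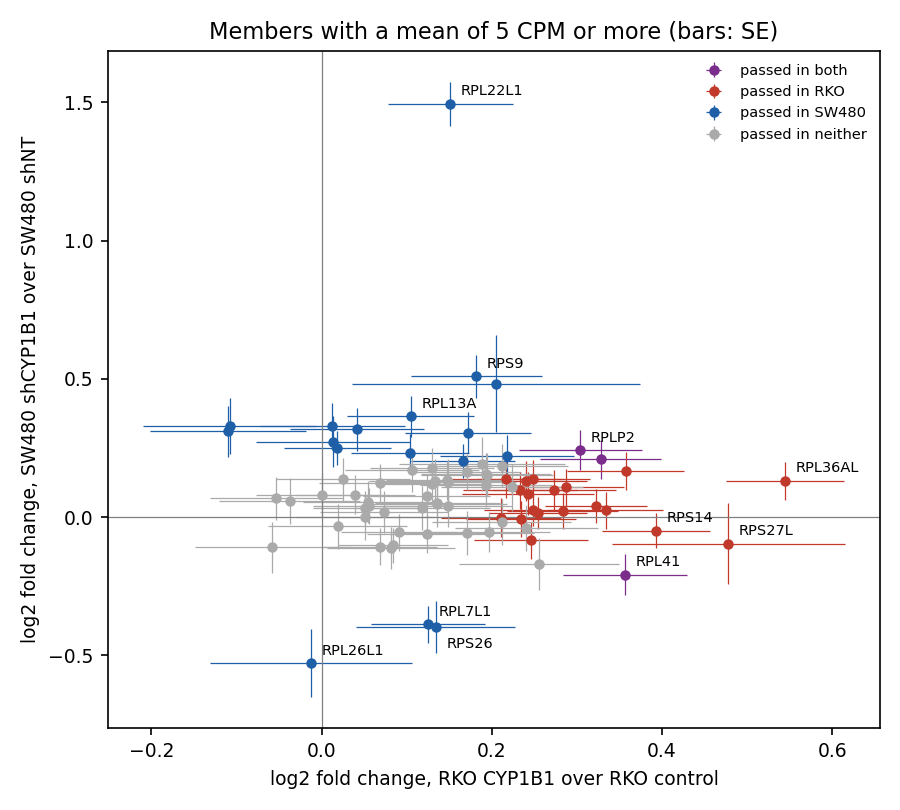
log2 fold change of RKO CYP1B1 over RKO control (horizontal) against SW480 shCYP1B1 over SW480 shNT (vertical) for members with a mean of at least 5 CPM, with bars of 1 SE and colours by which test was passed. RPL22L1 stands alone at 1.5 in SW480, RPL36AL lies farthest right at 0.54 in RKO, and RPLP2 and RPL41 lie among the genes that passed in both.

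The RKO and SW480 comparisons share no library, and few members passed in both. RPLP2 and RPS19 rose in both, 2 of the 22 risen in RKO and 2 of the 16 risen in SW480, and RPL41 rose in RKO and fell in SW480. RPS19 in SW480 is outside the rule for named genes and is given after its values were seen (log2 fold change 0.21, adjusted p 0.0292). Its call there was lost without SW480 shNT replicate 2 and without either shCYP1B1 library, as was that of RPLP2, so neither gene held as risen in both lines in every such fit. Since CYP1B1 was raised in RKO and lowered in SW480, the difference between lines was also tested as the change from low to high CYP1B1, RKO CYP1B1 minus RKO control less SW480 shNT minus SW480 shCYP1B1. The tested value equals the RKO change over control plus the SW480 change over control. A member that rose with both manipulations, as RPLP2 and RPS19 did, therefore scores high. By that test 39 members were called with a positive value and 2 with a negative one. These are 47% and 2.41% of members, where 21% and 21.6% of all genes were so called. The median was 0.27 for members and -0.02 for all genes. Without RKO CYP1B1 replicate 1 the median for members was 0.14, and without replicate 2 it was 0.36. Apart from RPL3L, which had 0 counts in RKO control, RPL22L1 differed most (1.65, SE 0.11; edgeR adjusted p 2.17e-06), followed by RPS9 (0.69), RPL17 (0.69), RPL36AL (0.68) and RPLP2 (0.55). The call of RPL17 was lost under 6 alternatives, 4 of them fits with 1 library left out. RPL26L1 (-0.54, adjusted p 0.0239) and RPL7L1 (-0.26, adjusted p 0.0433) differed the other way, with a value near 0 or positive in RKO and a fall with the hairpin in SW480. The call of RPL7L1 in this test was lost under 10 alternatives, among them the fits without either RKO control or any 1 of the SW480 libraries. That of RPL26L1 was lost under 5, the fits without RKO control replicate 1 or any 1 of the SW480 libraries.

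Members with and without a TOP-type start moved by like amounts in RKO. There, 14 of 47 members with such a start rose with a median of 0.18, and 6 of 20 without rose with a median of 0.18. In SW480, 10 of 47 with the start rose and 2 fell (median 0.11), and 4 of 20 without rose and 3 fell (median 0.02). These counts carry no test.

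Genes for ribosomal proteins also lie outside the symbol rule. FAU, which encodes a fusion of a ubiquitin-like protein and a small subunit protein, stood at 198 and 191 CPM in RKO CYP1B1, against 143 and 134 CPM in RKO control (log2 fold change 0.49, SE 0.07; edgeR adjusted p 0.000617). RACK1, a signalling scaffold of the small subunit, had -0.03 (adjusted p 0.802). In SW480 FAU had -0.13 (adjusted p 0.138) and RACK1 -0.00 (adjusted p 1), and neither passed. The other mRNAs known for TOP starts, 14 genes of elongation and initiation factors and RNA-binding proteins, had a median of -0.03 in RKO. There 0 of 14 rose and 0 fell by edgeR's test, where 13.8% of all genes rose and 13.8% fell. By the same test 2 of 14 had an unadjusted p under 0.05, and the share of all genes at that cut is not given here. In SW480 11 of the 14 rose and 2 fell, where 25.3% of all genes rose and 25.3% fell, with a median of 0.21 for the list and -0.00 for all genes. PABPC1, the poly(A)-binding protein, stood at 2250 and 2236 CPM in SW480 shCYP1B1, against 1741 and 1728 CPM in SW480 shNT (log2 fold change 0.37, SE 0.06; edgeR adjusted p 0.000325). EEF1B2, an exchange factor of elongation, stood at 419 and 420 CPM, against 635 and 607 CPM in SW480 shNT (log2 fold change -0.57, SE 0.07; edgeR adjusted p 7.82e-05). HNRNPA1 (-0.35) also fell.

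Some genes that escort ribosomal proteins before assembly changed. Of 9, 3 rose and 0 fell in RKO, where 13.8% of all genes rose and 13.8% fell, among them RPS19BP1, which binds RPS19 (0.46, adjusted p 0.00173), and AAMP, whose yeast counterpart holds Rpl10 (0.34, adjusted p 0.00483). The call of AAMP was lost without RKO control replicate 2, and that of GRWD1, the other gene risen, under 11 alternatives. In SW480 2 rose and 5 fell, where 25.3% of all genes did each. The call of RPS19BP1, which fell there, was lost without shNT replicate 1 or shCYP1B1 replicate 1. GRWD1, which escorts RPL3, stood at 53.4 and 52.7 CPM in SW480 shCYP1B1, against 134 and 124 CPM in SW480 shNT, a fall with the groups far apart (log2 fold change -1.28, SE 0.08; edgeR adjusted p 5.48e-07). RPL3 had a value of 0.12 there (adjusted p 0.142). HEATR3, which carries RPL5 into the nucleus, fell by 0.40 on the log2 scale (adjusted p 0.00803), a call lost without shCYP1B1 replicate 2.

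Among 11 genes that control translation of TOP mRNAs, 1 rose and 2 fell in RKO, and 1 rose and 7 fell in SW480, where the shares of all genes were 13.8% each way in RKO and 25.3% each way in SW480. RPS6KB1, an S6 kinase, fell in both lines, with log2 fold changes of -0.55 in RKO (adjusted p 0.00128) and -0.35 in SW480 (adjusted p 0.00827). Its SW480 value is outside the rule for named genes, is given after it was seen and was not checked under the alternatives. Its relative RPS6KB2 rose in RKO (0.35, adjusted p 0.00932) and fell in SW480 (-0.83, adjusted p 1.36e-05). LARP1, which binds TOP starts, had -0.11 in RKO (adjusted p 0.428) and fell by 0.52 on the log2 scale in SW480 (adjusted p 0.000986), where RHEB, the activator of mTOR, rose (0.61, adjusted p 4.27e-05). Of 7 genes of the p53 response to unassembled ribosomal proteins and of their quality control, 0 rose and 3 fell in RKO, and 3 rose and 3 fell in SW480, beside the same shares of all genes. MDM2 fell in both lines (-0.33, adjusted p 0.00662 in RKO, and -0.58, adjusted p 0.000126 in SW480), and MDM4 fell in RKO (-0.57, adjusted p 0.00146). Of 4 factors that bind ribosomal protein promoters, YY1 rose in RKO (0.33, adjusted p 0.00846) and SP1 fell (-0.30, adjusted p 0.0253), while MYC rose in SW480 (0.35, adjusted p 0.00297) and GABPA fell (-0.46, adjusted p 0.00385). In RKO the calls of MDM2 and YY1 were lost without RKO control replicate 2 and with the RKO libraries fitted alone, that of RPS6KB2 without either RKO control and with those libraries alone, and that of SP1 under 8 alternatives. The call of GABPA in SW480 was lost without shNT replicate 2.

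The lines themselves differed in most members. RKO control and SW480 shNT are the control libraries of the comparisons above, so this comparison shares them, and line and control vector cannot be told apart. Of 83 members, 46 were higher in RKO control and 18 lower, or 55.4% and 21.7%, where 35.6% and 41.2% of all genes were. The groups did not overlap for 50 members upward and 23 downward, or 60.2% and 27.7%, where 42.5% and 47.7% of all genes were so placed. The median log2 fold change was 0.26 for members and -0.08 for all genes. RPL22L1 again stood out, at 170 and 181 CPM in RKO control, against 20.9 and 18.8 CPM in SW480 shNT (log2 fold change 3.14, SE 0.08; edgeR adjusted p 1.39e-11). RPL30 stood at 1380 and 1301 CPM in RKO control, against 453 and 435 CPM in SW480 shNT (log2 fold change 1.59, SE 0.08; edgeR adjusted p 3.93e-09). RPL7 followed at 1.39, RPL12 at 1.38, RPS27L at 1.37, RPL9 at 1.35 and RPS29 at 1.22, while RPL10 (-0.88), RPS14 (-0.67), RPS7 (-0.65) and RPL35A (-0.54) were lowest. RPL10 stood at 576 and 576 CPM in RKO control, against 1081 and 1040 CPM in SW480 shNT (SE 0.08; edgeR adjusted p 5.86e-07). The libraries of these genes were apart without overlap.

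The difference between the lines varied with the chromosome that carries a member. On chromosome 8 all 4 members, RPL30, RPL7, RPL8 and RPS20, were higher in RKO control, with log2 fold changes of 0.92 to 1.59, and the median of all 447 genes tested there was 0.80. On chromosome 2 all 4 members, RPL31, RPL37A, RPS27A and RPS7, were lower, with values of -0.65 to -0.18, and the median of all 945 genes tested there was -0.37. On the X chromosome the median of all genes was -0.69, and RPL10, RPL36A, RPL39 and RPS4X had a median of -0.15. Over the 15 chromosomes with at least 3 tested members, the medians of members and of all genes on the chromosome went together (Pearson r 0.85, a description over chromosomes of 1 pair of lines), and the members' median was the higher on 13 of the 15. DNA copy number was not measured in these files, and its part was not tested. Some genes named here by position fall outside the rule for named genes and were chosen after their values were seen.

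**Figure D5:**
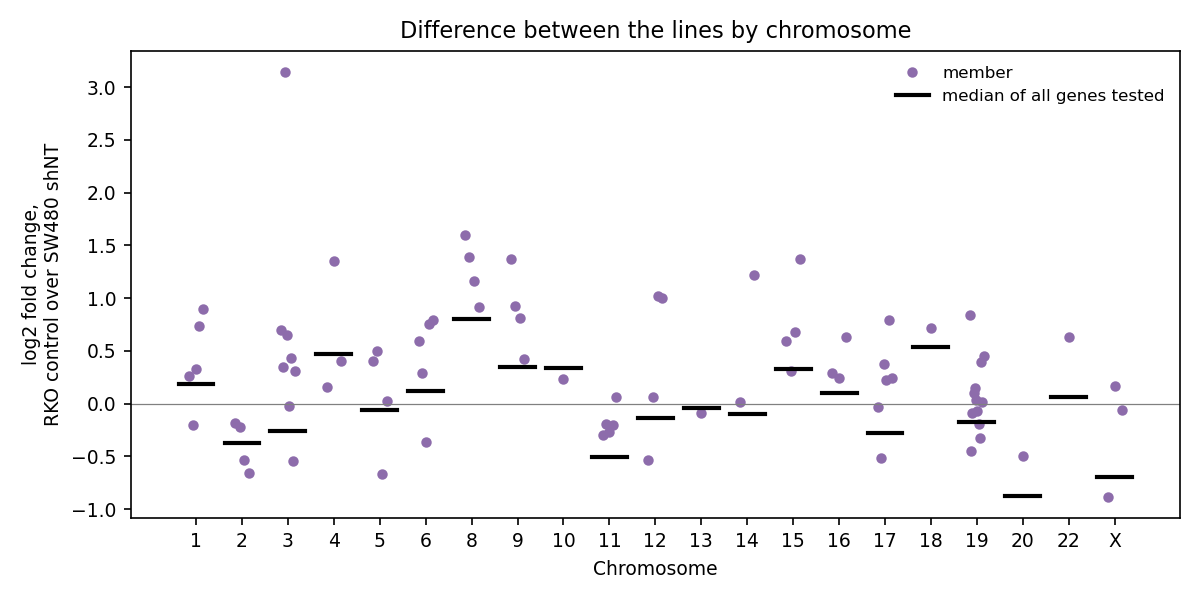
log2 fold change of RKO control over SW480 shNT for each tested member (points, RPL3L and RPL36A left out for their low counts) by chromosome, with a bar at the median of all genes tested on that chromosome. Members of chromosome 8 lie from 0.92 to 1.59, all above an all-gene median of 0.80, and those of chromosome 2 from -0.65 to -0.18 around -0.37.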

How the data were processed

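RNA-seq counts per gene and FPKM (fragments scaled to gene length and library total) were deposited by the authors for 8 libraries as tables of the whole series. The submitters' processing notes name the build GRCh38.p13. Aligner, counting tool, strand setting and the treatment of reads that match several genes were not stated in any source used here, so genes that overlap another gene on either strand, and members with near-identical copies, are uncertain. The deposited FPKM equal the deposited counts divided by a gene length and the library total.

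Counts were tested with edgeR 4.0.16 in R 4.3.3 (quasi-likelihood test, TMM scaling, 1 coefficient per group over 8 libraries, 4 residual degrees of freedom) after filterByExpr (minimum count 10, minimum total 15), which left 14157 genes. P-values were adjusted by Benjamini-Hochberg over all of them, with a threshold of 0.05. The SE is the absolute log2 fold change over the square root of F. The procedure was run on data simulated with the same spread in every group. The RKO CYP1B1 libraries here differed more from each other than those of the other groups did. That run therefore does not show how the calls behave under such a spread. CPM are TMM-scaled for members, related genes and markers, and are CPM of the total for CYP1B1. Intervals of count ratios are exact and cover counting error only.

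Alternatives were other scalings and filters, DESeq2 1.42.0, limma 3.58.1 on log2(FPKM + 1) and log2(FPKM + 0.1), fits of the compared groups alone, a block for replicate number, and each library left out. Described with a test were, per comparison, the 10 members with the largest fold change each way among those that passed, did not overlap between groups and reached 5 CPM in 1 group, with paralogs and partners, stalk genes, RPSA, RPS27A, RPS6, RPL5, RPL11, CYP1B1 and up to 4 genes of each related list by smallest p. Members and lists were chosen with earlier results of these data known. Some genes that the rule names are not reported here.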

Additional observations from a re-analysis of the deposited data

Results flagged for a closer look

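The change from low to high CYP1B1 was tested for a difference between the lines (RKO CYP1B1 minus RKO control, less SW480 shNT minus SW480 shCYP1B1) among all genes with edgeR's quasi-likelihood test, and 18 of the members described by name differed at an adjusted p under 0.05. Values on the log2 scale were 1.65 for RPL22L1, 0.69 for RPS9, 0.69 for RPL17, 0.68 for RPL36AL, 0.55 for RPLP2, 0.54 for RPS19 and 0.53 for RPL18. They were 0.47 for RPL13A, 0.44 for RPL21, 0.39 for RPL22, 0.37 for RPLP1, 0.37 for RPL39, 0.34 for RPL11, 0.33 for RPSA and 0.25 for RPL3. RPL26L1 had -0.54 and RPL7L1 -0.26. Each value equals the RKO change over control plus the SW480 change over control. A rise over control in both lines therefore gives a positive value. Some of these calls did not hold under the alternatives: those of RPL3 and RPL7L1 were lost under 10, that of RPL3L under 9, RPL17 under 6, RPL26L1 under 5, RPL11 under 4, RPLP1 under 3, RPL39 under 2, and RPL13A, RPL21 and RPSA under 1. RPL3L had 7.27, which is set by the prior count of the fit, as the gene had 5 counts in RKO CYP1B1 and 0 in RKO control.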

How the results depend on the processing

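Of 3283 values of genes described by name under the alternatives, 2974 kept their side of the threshold, 203 lost their call and 105 gained one. The 2974 include values that passed in neither fit and changed sign. RPL26L1 in RKO, for example, ran from -0.22 to 0.17 over the settings. A further 1 value changed sign and gained a call: RPLP0 in RKO was -0.13 without CYP1B1 replicate 1 and 0.12 without CYP1B1 replicate 2. Counts of members called depended on the setting, and those below are of members only, without the share of all genes in each setting. With limma on log2(FPKM + 1) and no filter, 13 members rose in RKO and 7 in SW480, and 18 were higher in the difference between lines. In fits of the compared groups alone, 9 rose in RKO, and 44 rose and 11 fell in SW480. The members lower in the difference between lines numbered 1 under RLE scaling, without a filter and with DESeq2. Leaving out each library in turn gave 7 to 68 higher and 0 to 7 lower in RKO, 6 to 39 higher and 3 to 10 lower in SW480, 21 to 66 higher and 0 to 5 lower in the difference between lines, and 41 to 49 higher and 12 to 19 lower between RKO control and SW480 shNT. Each of these fits had fewer libraries and its own shared estimate of the spread, and the part of either was not tested. The family's share rests on its unit: of summed FPKM it was 21.4% in RKO CYP1B1, 21.1% in RKO control, 15.5% in SW480 shCYP1B1 and 15.1% in SW480 shNT. Of counts without the 10 most abundant other genes it was 8.71% in RKO control, 6.67% in SW480 shCYP1B1 and 6.36% in SW480 shNT, and without paralogs 6.35% in SW480 shCYP1B1. Scaling moved the median of all genes by under 0.1 on the log2 scale in every comparison. The members' median in SW480 was 0.08 with TMM, 0.04 with library size only and 0.11 with RLE scaling, with 24, 34 and 20 of 83 members negative.

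Deviations of same-numbered libraries over all genes correlated at -0.01 in RKO and -0.01 in SW480. Over members alone they correlated at -0.22 in RKO, 0.77 in SW480 and 0.41 between the control groups. With a block for replicate number, 23 members rose and 0 fell in RKO, 17 rose and 5 fell in SW480, 37 were higher and 1 lower in the difference between lines, and 46 were higher and 18 lower between the control groups. The share of all genes called with the block is not given here.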
